A study of Homo sapiens with 12 samples.

Results

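The data described here are the lamina-associated domains (LADs) of human chromosomes 16, 17 and 20, chosen by chromosome name alone: every interval on these chromosomes in the naive and the primed LAD list. The naive list held 540 such intervals (195, 167 and 178 on chromosomes 16, 17 and 20) of 9178 in all, and the primed list held 240 (78, 54 and 108) of 5671. The lists came from the H9 human embryonic stem cell line, kept without treatment in RSeT medium (naive) or mTeSR medium (primed), and mapped by pA-DamID. Here a protein A-Dam fusion is led to the nuclear lamina by an antibody to lamin B1 (LMNB1), where Dam methylates the adenine of GATC sites. The labels give 3 LMNB1-dam and 3 Dam-only libraries per state, all from this single cell line. Each state is represented by 1 list without scores or read numbers, so naive and primed values are given side by side and no difference between them could be tested. The naive or primed identity of the cells was taken from the labels, and its marker expression was not analysed here.

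LADs are long stretches of chromatin at the inner face of the nuclear envelope, usually poor in genes and transcribed at low levels. Chromosomes differ in how they are placed in the nucleus: gene-rich ones tend towards the interior and gene-poor ones towards the rim. Chromosomes 16, 17 and 20 are rich in genes, but each also carries long gene-poor blocks with large adhesion, channel and signalling genes, among them the type II cadherin genes of 16q and the phospholipase C beta and MACROD2 genes of 20p.

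Dam can mark DNA only where it reads GATC, so the promoters of 6 genes are shown with GATC in capitals: per direction, the 2 with the largest difference between the lists among named genes with an entry in the promoter table, and 2 further ones. CLEC3A, NOG, UBE2C and FAM20A, which differed as much as or more than some of those shown, had no matched entry. Each runs 5′ to 3′ on the gene's strand from 250 bases before the gene's start to 50 bases after it (RefSeq, GRCh38.p14). SNRPB2, encoding a U2 snRNP protein (chr20:16729776-16730075, plus strand), and its neighbour OTOR, encoding the cochlear protein otoraplin (chr20:16748108-16748407, plus strand), lay in a naive-only stretch. DUXB, a double homeobox gene (chr16:75701412-75701711, minus strand), and WBP2, encoding a WW domain-binding protein (chr17:75856387-75856686, minus strand), lay in primed-only windows. CDH8, a type II cadherin gene (chr16:62036389-62036688, minus strand), stands for LADs common to both states, and WWOX, an oxidoreductase gene that spans a common fragile site (chr16:78099404-78099703, plus strand), for the longest naive-only stretches; these last 2 were chosen after their values were seen.
SNRPB2: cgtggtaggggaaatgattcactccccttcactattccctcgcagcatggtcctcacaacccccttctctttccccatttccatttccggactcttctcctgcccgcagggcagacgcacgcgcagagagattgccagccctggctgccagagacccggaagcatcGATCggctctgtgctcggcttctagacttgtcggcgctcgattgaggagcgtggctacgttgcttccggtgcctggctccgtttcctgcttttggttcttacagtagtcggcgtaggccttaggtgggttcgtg
OTOR: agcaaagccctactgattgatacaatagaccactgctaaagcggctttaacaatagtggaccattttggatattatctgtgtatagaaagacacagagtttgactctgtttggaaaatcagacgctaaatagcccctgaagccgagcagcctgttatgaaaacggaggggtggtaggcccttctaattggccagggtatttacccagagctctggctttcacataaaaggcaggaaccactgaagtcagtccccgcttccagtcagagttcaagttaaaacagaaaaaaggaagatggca
DUXB: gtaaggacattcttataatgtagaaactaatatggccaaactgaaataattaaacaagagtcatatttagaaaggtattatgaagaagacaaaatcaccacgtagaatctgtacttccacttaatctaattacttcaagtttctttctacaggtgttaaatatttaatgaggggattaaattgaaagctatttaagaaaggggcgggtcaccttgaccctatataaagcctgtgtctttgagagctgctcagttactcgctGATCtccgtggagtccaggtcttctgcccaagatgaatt
WBP2: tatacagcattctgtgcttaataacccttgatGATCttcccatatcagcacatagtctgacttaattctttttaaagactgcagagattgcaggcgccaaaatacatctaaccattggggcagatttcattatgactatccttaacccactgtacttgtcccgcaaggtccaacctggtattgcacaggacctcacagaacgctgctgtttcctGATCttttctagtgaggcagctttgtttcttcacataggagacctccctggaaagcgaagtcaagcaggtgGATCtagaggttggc
CDH8: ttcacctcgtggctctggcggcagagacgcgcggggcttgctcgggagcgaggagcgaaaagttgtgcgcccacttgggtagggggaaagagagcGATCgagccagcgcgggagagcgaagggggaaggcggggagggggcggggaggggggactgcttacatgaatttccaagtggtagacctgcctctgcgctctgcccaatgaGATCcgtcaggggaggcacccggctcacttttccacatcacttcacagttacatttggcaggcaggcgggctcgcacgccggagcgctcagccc
WWOX: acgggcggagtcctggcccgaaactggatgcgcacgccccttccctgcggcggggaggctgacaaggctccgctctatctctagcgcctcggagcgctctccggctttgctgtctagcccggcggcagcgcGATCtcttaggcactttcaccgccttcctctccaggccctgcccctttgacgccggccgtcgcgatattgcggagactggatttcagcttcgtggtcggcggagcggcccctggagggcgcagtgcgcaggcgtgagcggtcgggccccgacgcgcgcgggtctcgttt
The promoter windows of SNRPB2, OTOR and WWOX had 100% cover by naive and 0% by primed LADs, those of DUXB and WBP2 had 0% and 100%, and that of CDH8 had 100% by both. The number of GATC sites was 3 at WBP2, 2 at CDH8, 1 each at SNRPB2, DUXB and WWOX and 0 at OTOR. Both strands read alike, since GATC is its own reverse complement. Of 35116 promoters of this length in the table, 41.7% held GATC, and of the 1819 matched among the 2560 protein-coding genes of chromosomes 16, 17 and 20, 740 (40.7%) did. Among matched genes of these chromosomes, 14 of 32 in LADs of both states, 10 of 15 in naive LADs only, 2 of 2 in primed LADs only and 714 of 1770 (40.3%) in neither held it. In the same order, 43.4% of 2488, 39.0% of 538, 41.4% of 295 and 38.7% of 10672 did on the other chromosomes. On chromosomes 16, 17 and 20, median promoter GC content was 57.8% for genes in LADs of both states (n = 32). It was 58.7% for those in naive LADs only (n = 15) and 65.3% for those in neither (n = 1770). On the other chromosomes it was 55.2%, 60.0% and 63.3%.

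LADs covered little of these chromosomes. Naive LADs held 42.65 Mb, or 17.9% of the 237.8 Mb spanned by the 3 chromosomes, and primed LADs 31.6 Mb, or 13.3%. On the other 20 chromosomes they held 49.99% and 46.1%. Coverage was highest on chromosome 20, with 24.5% in naive and 18.996% in primed LADs, followed by chromosome 16 at 17.5% and 11.6%, and chromosome 17 at 13.3% and 10.8%. Counted from the least covered of 23 chromosomes, chromosomes 20, 16 and 17 stood at places 6, 4 and 3 in naive and 5, 4 and 3 in primed, with chromosomes 22 and 19 below them. Among the 3 chromosomes, coverage was lower where gene density was higher. Counted from the most gene-dense, chromosomes 17, 16 and 20 stood at places 2, 4 and 6, and chromosome 19 at place 1. Some other chromosomes of similar gene density differed from them in coverage, and the part played by gene density was not tested. Chromosome 20 held 8.35 protein-coding genes per Mb and chromosome 1 held 8.28, yet the coverage of chromosome 1 was 42.1% and 36.8%. Chromosome 16 held 9.47 genes per Mb and chromosome 11 held 9.63, with a coverage of 48.4% and 41.4% on chromosome 11. Chromosome 22, at 8.88 genes per Mb, lay at the other extreme, with 0.059% in both lists. Spans include centromeric and other assembly gaps, which cannot hold a LAD. With stretches of 1 Mb or longer that held neither a gene nor a LAD left out, the coverage of the 3 chromosomes was 19.2% in naive and 14.3% in primed, against 52.7% and 48.6% on the others. Together the 3 chromosomes made up 7.85% of the span and 12.8% of the protein-coding genes analysed, but 2.96% of all naive LAD bases and 2.40% of all primed ones.

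**Figure D1:**
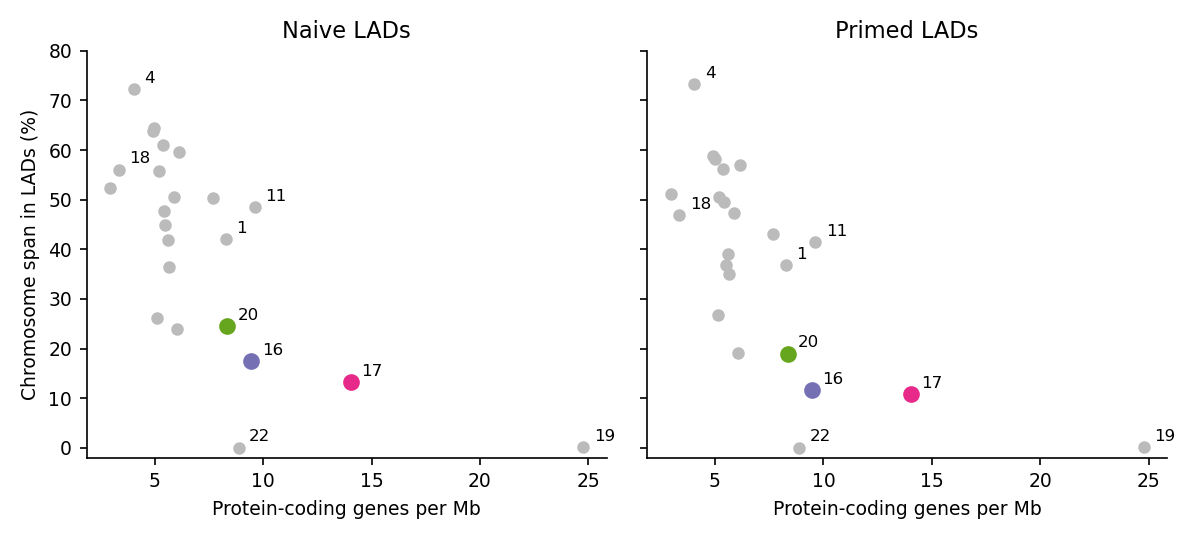
Share of each chromosome's span in LADs (y axis, %) against its protein-coding genes per Mb (x axis), 1 point for each of 23 chromosomes, naive list left and primed list right. Chromosomes 16 (purple, 17.5% and 11.6%), 17 (pink, 13.3% and 10.8%) and 20 (green, 24.5% and 18.996%) lie below chromosomes 1 and 11 and above chromosome 22; these have gene densities like those of 16 and 20, while 17 is denser.

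The naive list covered more of each of the 3 chromosomes. The difference was 5.96 percentage points on chromosome 16, 2.53 on chromosome 17 and 5.47 on chromosome 20, against 3.87 points over the other chromosomes. Counted from the largest difference, chromosomes 16, 20 and 17 stood at places 6, 7 and 16 of 23, and chromosome 18 came first at 9.12 points. On chromosome 17 the difference rested on short LADs: it was 0.59 points without LADs under 50 kb and 0.0601 points without LADs under 100 kb. With gaps under 100 kb closed, the differences were 9.52, 4.93 and 8.43 points.

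Lamina contact was gathered in a few blocks. When LADs of either list less than 500 kb apart were merged into blocks (a distance chosen after the data were seen), 19 blocks of 1 Mb or longer held nearly all LAD bases, 99.3% in naive and 98.9% in primed, on 27.3% of the span. Of these, 6 blocks covered at least 50% in both lists held 94.9% of the primed LAD bases and 79.5% of the naive ones. These shares follow in part from how the blocks were joined and picked, and blocks were not built on the other chromosomes. The 6 blocks spanned 36.9 Mb, or 15.5% of the 3 chromosomes, and held 75 whole protein-coding genes, or 2.03 per Mb. The 3 chromosomes as a whole held 10.8 per Mb. That value counts every gene, whereas genes that cross a block border are left out of the 2.03.

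On chromosome 16 the main block lay on the long arm at chr16:58770001-66270000, 7.5 Mb with a coverage of 97.7% in naive and 91.1% in primed. It held only 2 whole protein-coding genes, CDH8 and CDH11, both type II cadherins that join cells through calcium-dependent adhesion. This block alone held 46.3% of the chromosome's naive LAD bases and 65.4% of its primed ones. A further block at chr16:75670001-80940000 was covered at 93.9% in naive but 56.5% in primed. It held 14 genes, of which naive LADs held 13 and primed LADs 9. The block with most of CDH13, encoding T-cadherin, at chr16:81930001-83750000, was covered at 75.3% and 23.6%.

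Chromosome 17 had most of its LAD bases in 2 blocks of its long arm. The block chr17:51320001-56800000 had a naive coverage of 95.3% and a primed one of 92.2%, and naive LADs held 10 and primed LADs 9 of its 12 genes. Among them were CA10, which encodes a carbonic anhydrase-related neuronal protein, and KIF2B, which encodes a kinesin of the mitotic spindle. The block chr17:68550001-73040000 was covered at 81.7% and 80.4%, with 8 of 9 genes in LADs of each state. The gene outside was SOX9, a regulator of cartilage and testis development, which lay 3.58 kb from the nearest naive and 21.0 kb from the nearest primed LAD. With gaps under 100 kb between LADs closed, it counted as in LADs of both states.

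On chromosome 20 the main block lay on the short arm, at chr20:5490001-17460000. It was 11.97 Mb long, with a coverage of 91.9% (naive) and 84.5% (primed), and held 69.9% of the chromosome's naive LAD bases and 82.8% of its primed ones. Of its 34 protein-coding genes, naive LADs held 21 and primed LADs 16. JAG1, which encodes a Notch ligand, lay in this block but outside LADs, at a coverage of 6.38% in naive and 11.01% in primed. It counted as in both when gaps under 100 kb between LADs were closed. On the long arm, chr20:53960001-56190000 was covered at 77.1% and 64.6%, and chr20:52250001-53430000 at 84.7% and 38.1%.

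The remaining blocks were mostly naive. In 11 of the 19, primed coverage was under 10%: these held 6.11 Mb of naive and 0.39 Mb of primed LAD bases. One was chr16:6260001-8450000, where 0.71 Mb lay in naive LADs and none in primed; RBFOX1, a neuronal splicing regulator, reaches into it and was covered at 17.9% and 0%. Another was chr16:51040001-56160000 with the IRX3, IRX5 and IRX6 homeobox genes (1.03 Mb in naive, 0.01 Mb in primed), and a further one was chr17:10430001-14750000 with skeletal myosin genes (1.07 Mb in naive, none in primed). The pericentromeric block chr20:28750001-30660000 went the other way, with 0.03 Mb in naive and 0.12 Mb in primed LADs. Pericentromeric DNA is rich in repeats, and how multi-mapping reads were treated is not stated in the sources used here.

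**Figure D2:**
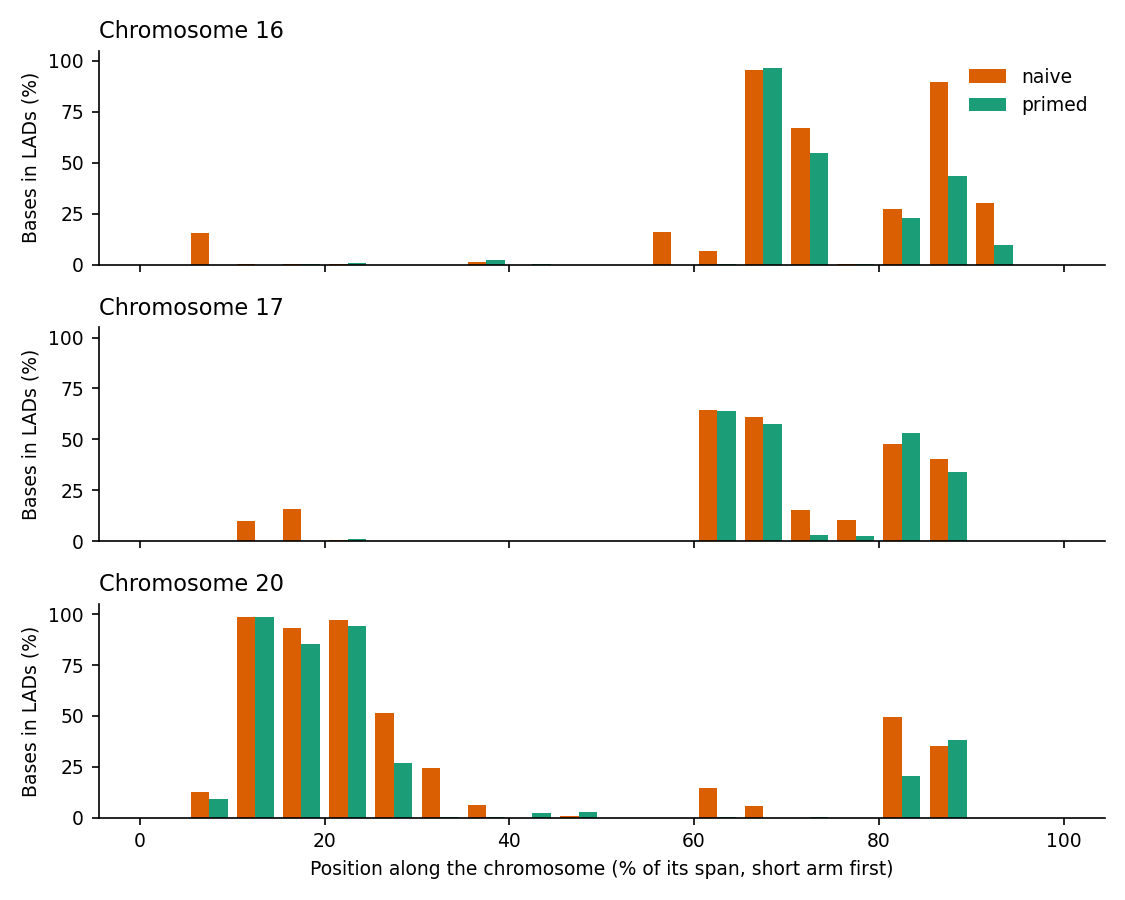
Share of bases in LADs (y axis, %) in 20 equal bins along each chromosome (x axis, % of its span), with naive in orange and primed in green. The LADs stand mainly in the long arm on chromosomes 16 and 17 and mainly in the short arm on chromosome 20; in 11, 12 and 7 of the 20 bins coverage was under 1% in both lists.

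The chromosome ends held no LAD over several Mb, apart from a single naive window on chromosome 17. The distance from the first base to the first LAD was 6.26 Mb in naive and 16.5 Mb in primed on chromosome 16 and 4.42 and 6.13 Mb on chromosome 20. On chromosome 17 it was 7.28 Mb in primed, while naive had a LAD at 0.07 Mb and the next in both lists was at 7.28 Mb. From the last LAD to the end of the span it was 6.47 Mb in naive and 6.89 Mb in primed on chromosome 16, 10.2 and 7.38 Mb on chromosome 17 and 8.21 and 8.14 Mb on chromosome 20. The longest stretch without a LAD in either list was chr16:36910001-51040000, 14.13 Mb with 27 whole genes, which includes the heterochromatin next to the centromere. Of this stretch, 9.56 Mb in a row held no annotated gene. The next on chromosome 16 was chr16:22470001-32080000 (9.61 Mb, 154 genes). The longest on chromosome 17 was chr17:26880001-36170000 (9.29 Mb, 122 genes) and on chromosome 20 chr20:30660001-39220000 (8.56 Mb, 127 genes). The next on chromosome 17, chr17:36180001-43900000, held 219 genes, with the type I keratin and keratin-associated protein clusters among them.

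Gene-poor DNA on these chromosomes was less often in LADs than equally gene-poor DNA elsewhere. Bins of 1 Mb (a comparison added after seeing the data) were sorted by the number of protein-coding gene midpoints in them, leaving out bins without any annotated gene. Bins with 1 to 2 genes had a mean coverage of 48.7% ± 41.6 (SD over 35 bins) in naive and 32.7% ± 44.0 in primed. On the other chromosomes the means were 79.4% ± 33.4 (613 bins) and 76.3% ± 37.9. The spread over bins describes positions along the genome and not replicates. In bins with over 10 genes the means were 1.15% and 0.76% on chromosomes 16, 17 and 20 (93 bins) and 12.04% and 10.4% on the others (478 bins). The order was kept with bins of 500 kb (39.0% and 24.0% against 70.2% and 64.5%) and of 2 Mb (65.3% and 52.3% against 81.0% and 79.2%). Within the 3 chromosomes, bins with 1 to 2 genes averaged 42.1% in naive and 20.6% in primed on chromosome 16 (14 bins), 61.8% and 52.0% on chromosome 17 (6 bins) and 49.6% and 36.3% on chromosome 20 (15 bins). These are not particular to the 3 chromosomes: chromosomes 19, 21 and 22 had naive means of 0.67%, 31.3% and 0% over 3, 9 and 5 such bins.

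**Figure D3:**
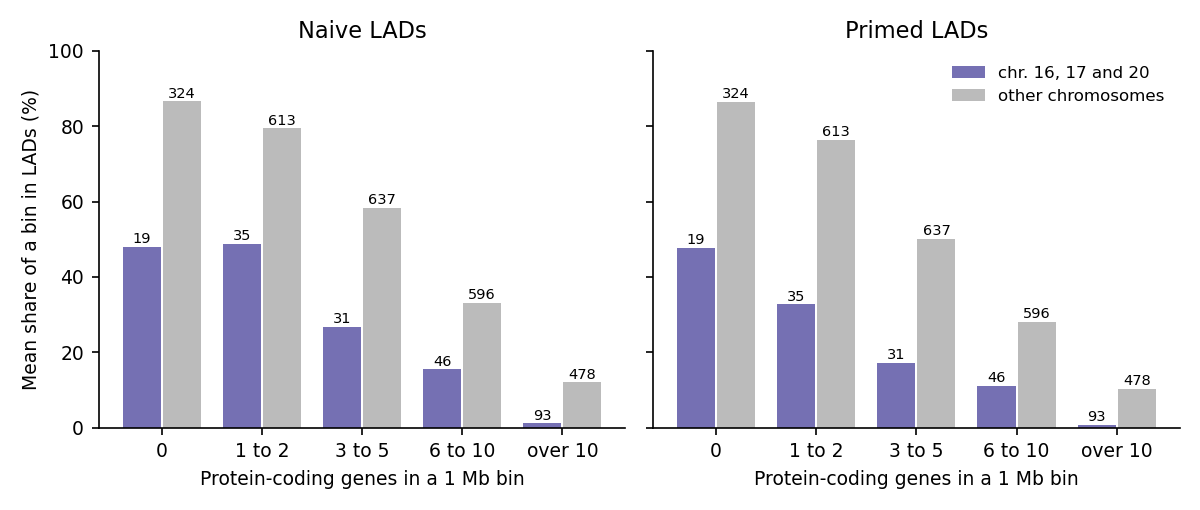
Mean share of 1 Mb bins in LADs (y axis, %) by the number of protein-coding genes in the bin (x axis), for chromosomes 16, 17 and 20 (purple) and the others (grey), naive left and primed right. The number of bins stands above each bar; in each class the purple bar is lower, as for 1 to 2 genes (48.7% against 79.4% in naive, 32.7% against 76.3% in primed).

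LADs of these chromosomes were shorter than elsewhere. The mean length was 79.0 kb (naive) and 132 kb (primed), against 162 and 237 kb on the other chromosomes, and the median was 10 kb in both lists (20 kb elsewhere). LADs of a single 10 kb window were 55.6% of all in naive and 56.7% in primed (39.1% and 45.4% elsewhere). They held 7.03% and 4.30% of the bases. Chromosome 20 alone had a median of 20 kb in both lists, and single windows were 47.2% of its naive and 46.3% of its primed LADs. Over the 3 chromosomes, each list had 8 LADs of at least 1 Mb. These held 35.8% of its bases in naive and 67.7% in primed, against 48.0% and 73.6% elsewhere. With gaps under 50 kb closed, these shares were 77.6% and 87.3%.

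**Figure D4:**
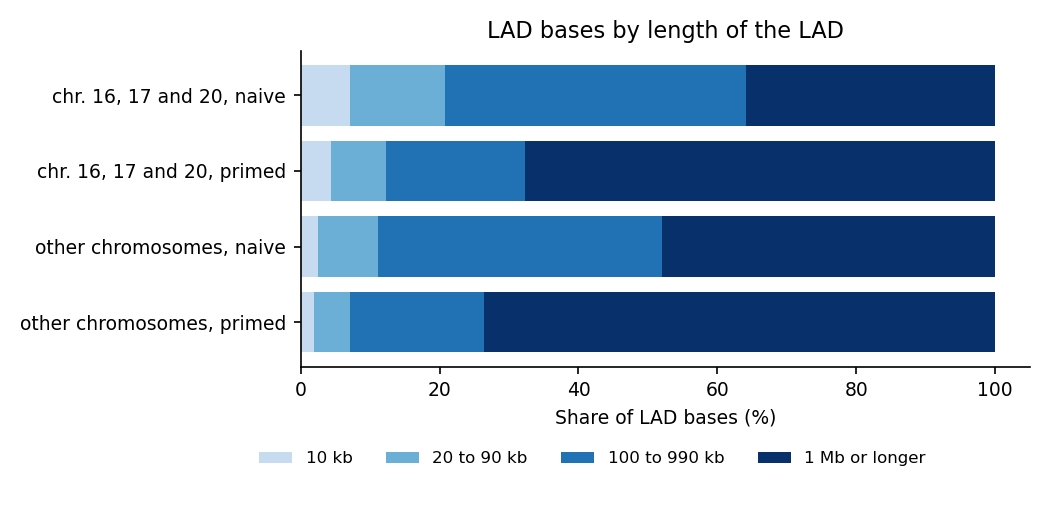
LAD bases divided by the length of the LAD that holds them (x axis, % of LAD bases), for chromosomes 16, 17 and 20 and for the others in each list. LADs of 1 Mb or longer (darkest) hold 35.8% in naive and 67.7% in primed on the 3 chromosomes; 10 kb LADs (lightest) hold 7.03% and 4.30%.

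The 8 long primed LADs were largely kept in naive, but in pieces. They totalled 21.4 Mb, between 92.9% and 100% of each lay in naive LADs, and these parts fell into 39 naive pieces. In reverse, the parts of the 8 long naive LADs (15.3 Mb) that lay in primed LADs fell into 38 pieces. Break-up was thus not particular to the naive list. The longest primed LAD was the cadherin LAD chr16:58820001-65130000 at 6.31 Mb, with CDH8 and CDH11. Of it, 99.0% lay in 7 naive pieces of at most 1.85 Mb. The LAD chr17:68550001-72010000 (3.46 Mb) was 93.6% naive in 7 pieces. It holds MAP2K6, encoding a p38 MAP kinase kinase, and the lipid transporter genes ABCA8, ABCA9 and ABCA10. The LAD chr17:51630001-54920000 (3.29 Mb, with CA10 and KIF2B) was 97.0% naive in 11 pieces. On chromosome 20 the LAD chr20:6150001-9020000 (2.87 Mb) was nearly the same in both lists, at 99.7% in 2 pieces, the longer of 2.85 Mb. It holds PLCB1, encoding a phospholipase C of receptor signalling, HAO1, encoding a liver glycolate oxidase, TMX4, encoding a thioredoxin-related membrane protein, and the growth factor gene BMP2. Next there were LADs of 1.49 Mb with SPTLC3, ISM1 and BTBD3 (96.0% in 4 pieces), of 1.27 Mb with the adhesion gene FLRT3 (100% in 1 piece) and of 1.18 Mb without a whole gene (98.3% in 3 pieces). The remaining one, chr16:75670001-77220000 (1.55 Mb), held CNTNAP4, a contactin-associated protein gene, and was 92.9% naive in 4 pieces.

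The longest naive LADs were not all long in primed. The longest was chr20:13790001-16780000 at 2.99 Mb, with MACROD2, KIF16B, SEL1L2 and FLRT3. Of it 90.3% lay in primed LADs, in 14 pieces of at most 1.27 Mb. The LAD chr20:6120001-9000000 (2.88 Mb) matched its primed partner at 99.3%. On chromosome 16, chr16:75850001-77940000 (2.09 Mb, with CNTNAP4, ADAMTS18, NUDT7 and SYCE1L) was 85.6% primed, and 2 others within the cadherin block, chr16:63280001-65140000 (1.86 Mb, with CDH11) and chr16:59720001-60890000 (1.17 Mb), were 99.5% and 100% primed. In contrast, chr16:79230001-80530000 (1.3 Mb, no whole gene) was only 52.3% primed, in 11 pieces of at most 0.15 Mb. On chromosome 17 the longest were chr17:69560001-71350000 (1.79 Mb), which holds the inward rectifier potassium channel genes KCNJ2 and KCNJ16 and lay wholly in a primed LAD, and chr17:51380001-52580000 (1.2 Mb, with CA10), 94.2% primed. The rest of the 5 longest LADs of each chromosome and list ran from 150 to 860 kb and lay at 88% to 100% in the other list. They hold ADAMTS18, a metalloprotease gene, HLF, a transcription factor gene, and ANKFN1, PCTP, PAK5 and ANKEF1.

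Sharing between the lists was lower here than elsewhere, and on the naive side alone. Bases in both lists came to 29.9 Mb, or 94.6% of all primed LAD bases (94.3% elsewhere) but 70.2% of all naive ones (87.0% elsewhere). The Jaccard index (bases in both lists divided by bases in at least 1) was 0.611 on chromosome 16, 0.714 on chromosome 17, 0.710 on chromosome 20 and 0.826 over the other chromosomes. Short naive LADs accounted for much of the unshared number. Only 10 of 300 naive 10 kb LADs (3.33%) and 25 of 177 of 20 to 90 kb (14.1%) had at least 50% of their length in primed LADs, against 26.3% and 48.8% elsewhere. Of primed LADs, 70 of 136 (51.5%) and 67 of 75 (89.3%) were shared in this way, against 53.9% and 80.1%.

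Naive-only stretches came to 12.7 Mb in 609 stretches and primed-only stretches to 1.71 Mb in 134. Single windows made up 62.2% of the former and 86.6% of the latter. Of the naive-only stretches, 436 (71.6%) touched no shared LAD, against 54.0% on the other chromosomes; of the primed-only ones, 73 (54.5%) stood apart, against 28.7%. Of the naive-only stretches, 11 reached 100 kb, with 9 of them on chromosome 16, and 1 primed-only stretch did, on chromosome 17. Protein-coding gene midpoints numbered 1.47 per Mb in shared windows, 2.28 in naive-only, 3.51 in primed-only (6 genes) and 12.8 in windows of neither list. On the other chromosomes the order was the same, at 2.47, 4.06, 5.93 and 10.01.

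The 4 longest naive-only stretches of chromosome 16 lay in or across WWOX and MAF. WWOX held those at chr16:78210001-78570000 (360 kb), chr16:78780001-79110000 (330 kb) and chr16:78580001-78770000 (190 kb), and chr16:79350001-79650000 (300 kb) overlapped MAF, a transcription factor gene of lens and lymphoid cells. On chromosome 17 the longest were chr17:12490001-12610000 (120 kb) and chr17:56670001-56750000 (80 kb), both without a protein-coding gene, chr17:13240001-13300000 (60 kb, none) and chr17:61020001-61080000 (60 kb) inside BCAS3. On chromosome 20, chr20:53960001-54090000 (130 kb) overlapped BCAS1, a gene of oligodendrocytes. Stretches of 80 kb followed, chr20:17380001-17460000 in PCSK2, a prohormone convertase gene, and chr20:19310001-19390000 and chr20:19400001-19480000 in SLC24A3, a sodium, calcium and potassium exchanger gene. None of these 12 stretches held a whole protein-coding gene.

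Primed-only stretches were shorter. As among the naive-only ones, several of the longest primed-only stretches overlapped genes. The longest, chr17:68550001-68660000 (110 kb), was the start of the long ABCA LAD and overlapped FAM20A, which encodes a secretory pathway pseudokinase needed for tooth enamel, and PRKAR1A. It was followed on chromosome 17 by chr17:68720001-68780000 (60 kb, no protein-coding gene) and by 20 kb stretches in STXBP4 and CEP112. On chromosome 16 the longest was chr16:75670001-75720000 (50 kb), which held DUXB whole and reached into CPHXL and CPHXL2, homeobox genes of the early embryo. The next on chromosome 16 were 30, 20 and 20 kb without a protein-coding gene. On chromosome 20 the longest were 30 kb in PLCB4, 30 kb and 20 kb without a protein-coding gene, and 20 kb in TASP1.

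Of the 2560 protein-coding genes on the 3 chromosomes, 65 lay in naive LADs, meaning that at least 50% of the gene body was covered. This was 2.54%, with a 95% exact (Clopper-Pearson) interval of 1.96% to 3.22% that treats genes as independent, while over all chromosomes the share was 18.9%. Primed LADs held 50 (1.95%, 1.45% to 2.57%; all chromosomes 17.3%). The interval covers counting error only, and neighbouring genes that share a LAD make it too narrow. Both lists shared 45 of these genes (1.76%; all chromosomes 15.4%), 20 were in naive LADs only (0.78%; all chromosomes 3.44%) and 5 in primed LADs only (0.20%; all chromosomes 1.89%). The count of naive-only genes was 32 with gaps under 50 kb closed, 14 without LADs under 100 kb, 44 when 10% of the gene body sufficed and 11 when 90% was required. Primed-only genes numbered 10 at 10% and 3 without LADs under 100 kb. The median gene length was 88.1 kb for genes in both, 108 kb for naive only, 7.57 kb for the 5 primed-only genes and 17.3 kb for genes in neither.

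Long genes were in LADs more often, yet many long genes of these chromosomes were not. Of 21 genes of 500 kb or longer, naive LADs held 9 and primed LADs 4 (42.9% and 19.05%, against 74.7% and 66.2% of 293 elsewhere), and 7 had no LAD cover in either list. The 4 in both were MACROD2 (2058 kb, 100% in naive and 95.6% in primed), PLCB1 (753 kb, 100% in both), TASP1, encoding a threonine protease (92.5% and 98.1%), and CA10 (100% in both). Without any cover were the acid-sensing channel gene ASIC2 (1144 kb), the cadherin gene CDH4 (688 kb), LRRC37A2, SHISA9, SNX29, the splicing regulator gene RBFOX3 and GSE1. Of genes under 10 kb, 7 of 867 lay in LADs of each state, or 0.81%, against 16.1% and 16.01% elsewhere. Of other gene types, 225 of 1843 lncRNA genes (12.2%; 40.6% elsewhere) lay in naive and 156 (8.46%; 34.7%) in primed LADs. Of 240 miRNA genes, naive LADs held 6 and primed LADs 4 (2.5% and 1.67%; 23.2% and 21.6% elsewhere). Of 59 tRNA genes, 0 lay in LADs of either state (6.51% and 3.65% elsewhere).

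The genes with the largest naive excess on chromosome 16 lay around WWOX. WWOX (1113 kb) had 97.3% of its body in naive and 3.59% in primed LADs, and its neighbour MAF (398 kb in this annotation) had 97.5% and 2.51%. VAT1L (192 kb) followed at 84.3% and 0.75%, CLEC3A, a C-type lectin gene of cartilage, at 100% and 0%, and NUDT7, a peroxisomal coenzyme A hydrolase gene, at 100% and 37.9%. These 5 genes are neighbours, and their calls are not independent. CAPNS2 (1.0 kb), a calpain subunit gene, was covered at 100% and 0%, by a single naive window. The LADs were also joined over gaps under 50 or 100 kb, or stripped of LADs under 50 or 100 kb; WWOX, MAF and VAT1L kept their naive-only call in each of these 4 settings, NUDT7 under 3, and CLEC3A and CAPNS2 under 2. CDH13 (1174 kb) was covered at 75.2% and 26.4%.

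On chromosome 17 naive-only genes were few. TOM1L1 was covered at 96.8% (naive) and 47.7% (primed) and BCAS3 at 57.3% and 16.8%, and each kept the call under 1 setting. TBC1D3B (60.6% and 0%) rested on a single window and has near-identical copies, so its call is uncertain. COX11 (48.0% and 0%), EFCAB3 (42.8% and 0%) and MYH4 (38.0% and 0%) were also among the 6 largest naive excesses of the chromosome but did not reach 50%. The remaining naive-only gene of the chromosome was MMD, at 65.8% and 34.2%.

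On chromosome 20, SNRPB2 and OTOR lay wholly in naive LADs, with no primed cover. Both lie in chr20:16720001-16780000, a naive-only stretch of 60 kb at the end of the MACROD2 LAD. BCAS1 was covered at 87.0% and 0%, and these 3 kept their call in each of the 4 settings. PCSK2 (90.5% and 24.7%), SLC24A3 (62.2% and 0%) and SNAP25, encoding a SNARE protein of synaptic vesicle release (80.3% and 22.6%), followed. SNAP25 kept the call under 3 settings and PCSK2 and SLC24A3 under 2. Over the 3 chromosomes, 4 of 2560 genes were wholly in naive LADs with 0% in primed LADs, and 3 the reverse. Over all chromosomes these shares were 0.816% and 0.581%.

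All 5 primed-only genes can be named. FAM20A was covered at 0% (naive) and 77.5% (primed) and DUXB at 0% and 100%, and both kept the call in each of the 4 settings. NOG, which encodes the BMP antagonist noggin, was covered at 0% and 100%, by the single primed window chr17:56590001-56600000. A naive LAD ended 3.70 kb from it, and no setting kept the call. UBE2C, encoding a ubiquitin-conjugating enzyme of the mitotic exit (0% and 100%), and WBP2 (0% and 59.9%) each lay in a single primed window, and the nearest naive LAD was 2733 and 2806 kb away. CPHXL, next to DUXB, was covered at 52.5% (naive) and 100% (primed) and so counted as in both. MPHOSPH6 (45.3% in primed), CPHXL2 (41.8%), MPP2 (28.3%) and ACSM2B (15.9%) had 0% in naive and did not reach 50%. The other named genes with a higher primed share differed by at most 16.4 points: STXBP4 (83.1% and 99.5%), ABCA10 (89.7% and 100%), HYDIN, DNTTIP1, ESF1, TASP1, PLCB4 and JAG1.

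**Figure D5:**
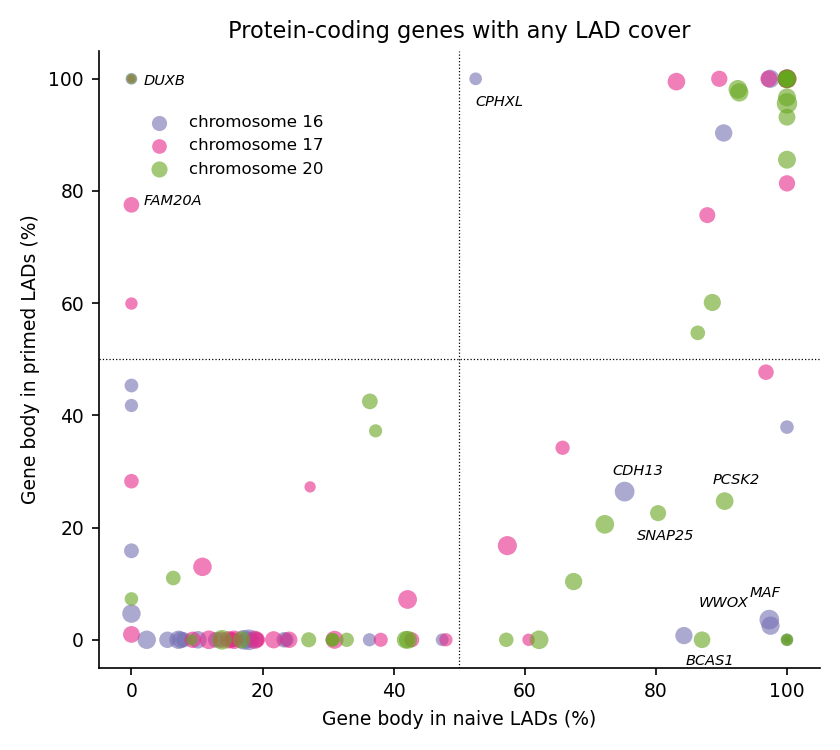
Share of the gene body in naive (x axis, %) and primed LADs (y axis, %) for each protein-coding gene of chromosomes 16 (purple), 17 (pink) and 20 (green) with any LAD cover; larger points are longer genes, and dotted lines mark 50%. More points lie below the diagonal than above it (68 and 22 genes), with WWOX (97.3% and 3.59%) and MAF (97.5% and 2.51%) far to the right and DUXB (0% and 100%) and FAM20A (0% and 77.5%) on the left edge.

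Some genes lay in short LADs called in both lists. SLC2A4, the gene of the insulin-responsive glucose transporter, was covered at 100% in both by the same 10 kb window, chr17:7280001-7290000, amid gene-dense DNA. THBD, the thrombomodulin gene, was covered at 100% by a naive LAD of 20 kb and a primed LAD of 10 kb, both starting at chr20:23040001. Both genes were chosen after their values were seen, and both lost the call without LADs under 50 kb.

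Gene families that these chromosomes are known for were almost wholly outside LADs. Of 24 lists, 19, with 280 memberships in all, had no member in LADs of either state. They include 28 type I keratins, 34 keratin-associated proteins, 10 HOXB genes, 20 CC chemokines, 11 metallothioneins, 13 beta-defensins, 11 cystatins, 15 olfactory receptors, 50 ZNF genes and 12 ribosomal proteins. Also at 0 were 17 WAP domain and SPINT genes, 8 BPI fold, 8 CD300, 6 Schlafen, 5 SIRP and 5 carboxylesterase genes and the 5 genes of the growth hormone cluster. The 6 skeletal myosin heavy chain genes were outside too, with MYH4 alone touched, and CES1 and CES5A among the carboxylesterases had 23.6% and 5.49% in naive and 0% in primed. With gaps under 50 kb closed, 1 of these 19 lists gained a member, a myosin gene in naive. These zeros are to be read against all protein-coding genes of the 3 chromosomes, of which 2.54% lay in naive and 1.95% in primed LADs. For their genes under 10 kb the share was 0.81% in each list. A 0 in lists of this size is near those shares and is no trait of the families. Over all chromosomes the shares were 18.9% and 17.3%.

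Some genes of a list named synaptic, channel and neuronal adhesion genes were found in LADs. Of 40 listed, naive LADs held 12 and primed LADs 10, with the same 10 in both; their median coverage was 0% in each list. Of all genes of the 3 chromosomes, 2.54% lay in naive and 1.95% in primed LADs. The 10 were CDH8 (97.4% in naive and 100% in primed), PLCB4 (92.7% and 97.6%), MACROD2 (100% and 95.6%) and CDH11, CNTNAP4, CA10, KCNJ2, KCNJ16, PLCB1 and FLRT3, each at 100% in both. CDH13 and SNAP25 made up the difference. The list is broader than its name: PLCB1, PLCB4 and MACROD2 are not channel or adhesion genes, and both counts would be lower without them. The median length of the 40 genes was 68.7 kb, and the list was chosen with earlier results known, so the count is a description only. The NMDA receptor gene GRIN2A (2.33% and 0%), the phosphatase gene PTPRT (13.8% and 0%) and ASIC2 (0% in both) were among the 28 outside.

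Of 6 ABCA transporter genes, which move lipids across membranes, the 5 of the chromosome 17 cluster were in LADs of both states, with a median coverage of 100% over the 6 in each list, the highest of the 24 lists. ABCA5, ABCA6, ABCA8 and ABCA9 were covered at 100% in both, and ABCA10 at 89.7% and 100%. These 5 genes are neighbours within a single primed LAD, so the count rests on 1 region and their calls are not independent. Of 11 cadherin genes, naive LADs held 3 (CDH8, CDH11 and CDH13) and primed LADs 2 (CDH8 and CDH11). CDH1, the E-cadherin gene, lay outside, 1334 kb from the nearest naive and 2234 kb from the nearest primed LAD. Of 52 solute carriers, 2 lay in naive LADs (SLC24A3 and SLC2A4) and 1 in primed LADs (SLC2A4), which is near the share of all genes. Of all 2560 genes of the 3 chromosomes, 2.54% lay in naive and 1.95% in primed LADs.

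Developmental regulators were in LADs about as rarely as all genes of these chromosomes. Naive LADs held 1 of 31 and primed LADs 0, beside 2.54% and 1.95% of the 2560 genes. TSHZ2, a zinc finger homeobox gene (523 kb, 72.2% in naive and 20.6% in primed), was the one in naive LADs, and it was in neither list's LADs without LADs under 50 kb. The median distance to the nearest LAD was 261 kb (naive) and 1306 kb (primed), beside 1923 and 1995 kb over all 2560 genes. The naive LAD was the nearer for 26 of the 31 and the primed one for 4, against 1438 (56.2%) and 891 (34.8%) of all 2560; the naive list also has more LADs, and the difference was not tested. Partial cover was seen for TOX3 (17.96% and 0%) and TBX4 (15.6% and 0%). IRX3, IRX5 and IRX6 lay 43.3, 60.9 and 24.2 kb from naive and 1303, 656 and 259 kb from primed LADs. On chromosome 20, FOXA2, an endoderm regulator, lay 71.0 and 391 kb away, PAX1 55.7 and 302 kb, and NKX2-2 77.3 and 497 kb. The 4 nearer to primed LADs were MEOX1 (7460 kb from naive and 238 kb from primed), FOXS1 (1564 and 1184 kb), GATA5 (6343 and 6273 kb) and SOX18 (7928 and 7858 kb). With gaps under 100 kb closed, TOX3, IRX6, SOX9 and TSHZ2 (4 of the 31) counted as in naive LADs and SOX9 as in primed LADs. Of all 2560 genes, 122 had any LAD cover. None of 16 pluripotency and Polycomb genes was touched by a LAD, which is near that share. The closest was ZNF217, at 137 kb in naive and 437 kb in primed. DNMT3B, a de novo DNA methyltransferase gene, lay 2482 and 2102 kb away, SALL4 447 and 537 kb, and SUZ12, encoding a PRC2 subunit, 4169 and 5057 kb.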

How the data were processed

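Each state's LADs were deposited as 1 interval list (chromosome, start, end) for 3 LMNB1-dam and 3 Dam-only libraries. Whether these came from separate cultures is not given in the labels. The build is hg38 and the tools listed are SICER, SAMtools 1.10 and BWA, per the submitters' processing notes. Thresholds and pooling were not given in the sources used here, depth is unknown, and the lists used are named as simple where the labels name final ones. All starts and ends are multiples of 10 kb. Printed coordinates are 1-based. Spans run to the last gene or LAD of RefSeq GRCh38.p14, the primary assembly of hg38. A gene counted as inside LADs from a cover of 50% of its body upwards. The named genes were the 6 largest differences per chromosome and direction, ties by length, with the 5 longest LADs and 4 longest stretches per chromosome; in each of 24 lists, members in LADs of 1 state only, or up to 3 in both, were named. Other genes in the text were picked after their values were seen. The chromosomes and lists were chosen with earlier results of these data known. The code was checked on simulated lists, in which LADs were added over the whole body of genes without primed cover. Of these switched genes, 190 of 190 were recovered among 2560, with 0 called outside the added windows. This outcome followed from the set-up, so it tests the counting code and not the accuracy of the LAD calls. Tools were SciPy 1.17.1 (intervals), pandas 2.3.3 and numpy 2.4.6 under Python 3.11.15, with matplotlib 3.10.9 for plots. Alternatives joined or dropped short LADs, changed the share of the gene body, used gene starts or all genes, and, added after seeing the data, changed the bin width.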

Additional observations from a re-analysis of the deposited data

How the results depend on the processing

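No paired analysis was possible because each state has 1 list, which does not keep replicates apart, and none could be left out. The naive list stayed the more covered and the larger by genes on the 3 chromosomes under each setting. With LADs less than 50 kb apart joined, coverage was 20.9% in naive and 14.5% in primed, in 151 and 78 LADs. LADs of 1 Mb or longer then held 77.6% and 87.3% of the bases, the differences on chromosomes 16, 17 and 20 were 7.54, 4.41 and 7.32 points, and 32 genes were naive only. With 100 kb, coverage was 22.6% and 15.0% in 87 and 59 LADs, long LADs held 78.6% and 88.6%, and the differences were 9.52, 4.93 and 8.43 points. Naive-only bases were 19.1 Mb, primed-only bases 1.03 Mb and naive-only genes 35. Without LADs under 50 kb, coverage was 15.1% and 12.1% in 99 and 47 LADs, long LADs held 42.4% and 74.2%, and the differences were 4.46, 0.59 and 4.10 points. Naive-only bases were 8.24 Mb, primed-only bases 1.09 Mb and primed-only genes 3. Without LADs under 100 kb, coverage was 14.2% and 11.7% in 63 and 29 LADs, long LADs held 45.2% and 77.2%, and the differences were 4.21, 0.0601 and 3.42 points. Naive-only bases were 7.62 Mb and primed-only genes 3. Without long gene-free and LAD-free stretches, coverage was 19.2% and 14.3%. With 10% of a gene body required, 102 genes lay in naive LADs, 44 in naive only and 10 in primed only, and with 90%, 11 in naive only. By gene start, 5 of 1819 genes with a promoter entry were in primed LADs only, against 2 by body. Over all annotated genes, 6.65% lay in naive LADs, 4.73% in primed LADs and 2.25% in naive LADs only. Developmental regulators in naive LADs numbered 2 and 4 with LADs less than 50 and 100 kb apart joined and 0 without LADs under 50 or 100 kb, and 1 lay in primed LADs with 100 kb. In bins of 500 kb and 2 Mb with up to 2 genes per Mb, coverage was 39.0% and 65.3% in naive and 24.0% and 52.3% in primed. The difference of MPHOSPH6 turned to 54.7 points with LADs less than 100 kb apart joined, and that of TOM1L1 to -31.3 points without LADs under 100 kb; the cause was not tested. Without scores or read numbers, a window outside the lists may be distant from the lamina or poor in mappable reads or GATC sites, which cannot be told apart.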
